A study of Mus musculus with 16 samples.

Results

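The imprinted Dlk1 to Dio3 domain was examined in mouse embryonic stem cells that lacked Suz12 and in wild-type cells during retinoic acid differentiation. The domain was taken as chromosome 12 from 109452823 to 110281097 (GRCm38), from the start of Dlk1 to the end of Dio3, which spans 828.3 kb. Of the 24452 genes in the deposited table, 67 lay in this window by their GENCODE M21 positions, and the annotation places 118 genes there. They comprised 44 microRNA, 15 small nucleolar RNA (snoRNA), 5 long non-coding and 3 protein-coding genes. The domain was singled out with the difference between the 2 cell lines already known, so that difference is described here and not tested.

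The study followed the Suz12 knock-out line (Suz12-KO, genotype Suz12 -/-) and the wild-type E14 line (WT) at 0, 24, 48 and 72 h. Cells at 0 h were in serum medium with leukemia inhibitory factor (LIF), and those at later times in the same medium without LIF and with 1 µM all-trans retinoic acid. The labels give 2 biological replicates for each of the 8 groups, 16 libraries in all, and the table holds 1 RPKM column per group, so no spread between replicates could be computed. RPKM scales reads to gene length and to the reads of the column. Suz12 is one of the subunits that PRC2, a Polycomb complex, needs to methylate histone H3 at silent genes. The labels do not say whether the knock-out line is a single clone, and loss of Suz12 cannot be told apart from any other difference between the lines.

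In the mouse, the domain is controlled by a DNA-methylated element between Dlk1 and Meg3. Dlk1, Rtl1 and Dio3 are expressed from the paternal chromosome. Meg3 (also called Gtl2), Rian, Mirg and the microRNAs and box C/D snoRNAs that lie among them are transcribed from the maternal chromosome on the same strand. Dlk1 encodes a transmembrane protein related to Notch ligands, Rtl1 a protein derived from a retrotransposon that placental development needs, and Dio3 the deiodinase that inactivates thyroid hormone. In mouse pluripotent stem cell lines the maternal RNAs are known to vary from line to line.

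The domain's strand and order are set out first because they frame every value that follows. Of the 67 genes 64 were on the plus strand, and the 3 on the minus strand were Rtl1, Mir3071 and Mir1247. The non-coding plus-strand genes from Meg3 to Mir369 numbered 62 and are called the non-coding unit below. The Meg3 promoter is shown because the unit begins there. The window from RefSeq (GRCm38) runs from 250 bases before to 50 bases after the start, chr12:109540746-109541045 on the plus strand, with the palindrome TGACGTCA in capitals.
Meg3 promoter: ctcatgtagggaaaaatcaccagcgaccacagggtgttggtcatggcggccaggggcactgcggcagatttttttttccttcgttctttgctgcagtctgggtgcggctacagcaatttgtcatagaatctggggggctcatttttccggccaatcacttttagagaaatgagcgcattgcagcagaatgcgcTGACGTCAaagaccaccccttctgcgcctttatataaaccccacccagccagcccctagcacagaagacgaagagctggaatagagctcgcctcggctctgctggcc
TGACGTCA, the form of the cAMP response element that reads alike on both strands, began 57 bases before the start and was found in 1.79% of the 32851 mouse promoter windows of this length. The window held 13 CG dinucleotides, against a median of 7 over all windows, and 37.9% of windows held at least as many. A second listed Meg3 window, chr12:109545148-109545447, held 1 CG and no TGACGTCA.

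Mature microRNA sequences in RefSeq (GRCm38) matched 43 of the 44 microRNA genes by symbol and gave 80 sequences with 73 distinct seeds. The seed, bases 2 to 8, pairs with target RNAs and is in capitals. One sequence is shown for each of the 8 microRNA genes with the most reads, in genome order, together with those sharing a seed with either arm of Mir1193.
miR-433-5p: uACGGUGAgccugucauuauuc
miR-127-5p: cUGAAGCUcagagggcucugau
miR-432: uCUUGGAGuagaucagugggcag
miR-679-5p: gGACUGUGaggugacucuuggu
miR-1193-5p: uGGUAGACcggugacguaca
miR-379-5p: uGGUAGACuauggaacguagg
miR-1193-3p: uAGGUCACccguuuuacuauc
miR-370-5p: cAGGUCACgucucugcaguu
miR-376c-5p: gUGGAUAUuccuucuauguuua
miR-654-5p: uGGUAAGCugcagaacaugugu
miR-541-5p: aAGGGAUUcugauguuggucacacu
The seed GGUAGAC was common to miR-1193-5p and miR-379-5p, and AGGUCAC to miR-1193-3p and miR-370-5p. In all, 7 seeds were each shared by 2 sequences, of which 2 seeds joined Mir3070a and Mir3070b. The reads counted over these genes do not tell the arms apart.

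Box C/D snoRNAs guide RNA methylation and carry a C box near the 5′ end and a D box near the 3′ end, which bind proteins. The 3 snoRNAs shown are the most read one, its closest relative in the domain and the second most read. They come from the GENCODE M21 transcripts (GRCm38). Capitals mark the C box motif TGATGA and the last match to the D box motif CTGA, by sequence alone. In Gm23787 that CTGA begins at base 55 of 73, farther from the 3′ end than in DQ267102 and DQ267101, and it may not be the D box.
DQ267102: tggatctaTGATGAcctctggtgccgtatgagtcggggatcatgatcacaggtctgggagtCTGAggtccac
DQ267101: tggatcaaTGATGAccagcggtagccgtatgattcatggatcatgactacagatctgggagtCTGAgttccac
Gm23787: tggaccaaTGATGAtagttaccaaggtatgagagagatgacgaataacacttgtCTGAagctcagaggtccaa
DQ267102 lies at chr12:109656345-109656416, inside Rian but outside its exons, and DQ267101 overlaps a Rian exon. Both motifs in this order were present in 10 of the 15 domain snoRNAs (66.7%) and in 92 of the 340 other snoRNA genes of the table (27.1%), which also include other snoRNA types. DQ267102 and DQ267101 were 83.6% identical, and Gm23736 and Gm22981 92.0%, so reads may be split or lost between such copies.

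The targeted gene did not mark the lines at the RNA level. Suz12 was at 2.59, 3.09, 2.38 and 1.35 RPKM in Suz12-KO cells at 0, 24, 48 and 72 h, against 2.94, 2.58, 1.26 and 0.995 RPKM in WT cells. A total over the gene does not locate the altered allele, so this check neither identifies nor contradicts the labelled genotype. Columns rested on 24731176 to 32153765 reads, of which 56.5% to 65.5% fell on Gm42418. Columns were compared on scaled RPKM, that is RPKM over a median-of-ratios factor per column, whose log2 lay between -0.54 (WT at 0 h) and 0.27 (Suz12-KO at 48 h).

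The non-coding unit was all but unread in Suz12-KO cells and plainly read in WT cells at every time. Its 62 genes together held 4, 11, 32 and 29 reads in Suz12-KO cells at 0, 24, 48 and 72 h, against 4966, 4245, 6531 and 14523 reads in WT cells. Every WT column exceeded every Suz12-KO column. Over the 4 columns of each line the unit had 76 reads in Suz12-KO cells, against 30265 in WT cells, and relative to all reads WT cells had 421 times as many (95% interval 336 to 535). All 95% intervals here are exact Poisson or binomial ones and cover counting error only, not variation between cultures. In bulk RNA, fewer cells that make an RNA and less RNA per cell cannot be told apart.

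Counted over all 67 genes, 54 had no read in any Suz12-KO column, and 1 (Mir1247) had none in any WT column. The plot of reads along the domain shows where the lines differed. At least 20 reads over the 8 columns were found for 31 of the 67 genes, and the non-coding ones among them reached that number through the WT columns. Of these 31, 26, 25, 27 and 27 were at least 2-fold lower in Suz12-KO than in WT cells at 0, 24, 48 and 72 h, on log2(scaled RPKM + 0.5), where a difference of 1 is 2-fold. The share of all 16400 genes with 20 reads that were as much lower was 1.26%, 1.20%, 1.76% and 1.66% at these times. A 2-fold lower value at all 4 times was found for 24 of the 31 domain genes and 0.317% of all genes. All 4 Suz12-KO columns lay below all 4 WT columns for 28 of 31, against 2.15% of all genes. A 2-fold higher value in Suz12-KO cells was found for 0, 0, 1 (Dlk1) and 0 of the 31 at 0, 24, 48 and 72 h, against 2.04%, 1.26%, 1.01% and 1.64% of all genes. None of the 31 was 2-fold higher at all 4 times, as 0.152% of all genes were, and none had all 4 Suz12-KO columns above all 4 WT columns, as 2.20% did. These shares restate the contrast the domain was chosen on.

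The median difference over the 31 genes was -3.2, -2.21, -2.87 and -3.49 on that log2 scale at 0, 24, 48 and 72 h, against 0 over all genes at each time. Over all 67 genes it was -1.93, -1.45, -2.24 and -2.66. With the 21 genes at 0 reads in Suz12-KO cells set to 3 reads over the 4 columns, a one-sided limit for a count of 0, the median of the 31 was 14.1-fold lower in Suz12-KO cells.

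**Figure D1:**
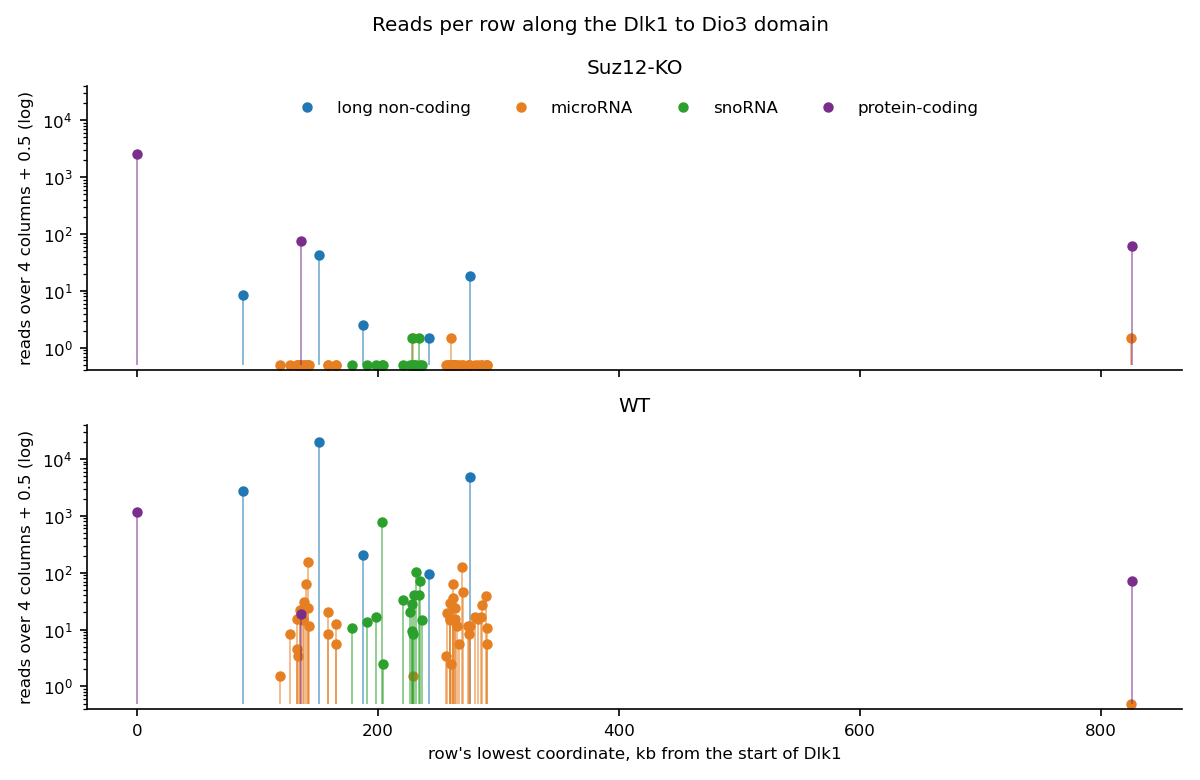
Reads per gene over the 4 columns of each line (log axis, 0.5 added), against distance from the start of Dlk1 in kb, with Suz12-KO above WT and colours for the gene class. Between Meg3 and Mir369 the 62 plus-strand non-coding genes held 76 reads in Suz12-KO cells, against 30265 in WT cells, while Dlk1 at the left and Dio3 at the right were read in both lines.

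Meg3, the long non-coding RNA at the head of the unit (chr12:109541001-109571726), was near 0 in Suz12-KO cells. It was at 0.00203, 0.00419, 0.00344 and 0.00656 RPKM in Suz12-KO cells at 0, 24, 48 and 72 h, against 0.972, 0.809, 1.16 and 2.75 RPKM in WT cells. These levels rested on 1, 2, 2 and 3 reads in Suz12-KO cells and on 454, 410, 519 and 1314 reads in WT cells. The columns of the lines did not overlap, and over the 4 times WT cells had 356 times the Meg3 reads of Suz12-KO cells relative to depth (181 to 826). Exons of Meg3 overlap the antisense gene Gm26906, and the sources used here do not say whether reads were counted by strand.

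Rian, the most read gene of the domain and host of many of its snoRNAs (chr12:109603940-109661716), had 3, 4, 19 and 17 reads in Suz12-KO cells at 0, 24, 48 and 72 h, against 3235, 2747, 4337 and 9892 reads in WT cells. As levels these were 0.00631, 0.00867, 0.0338 and 0.0385 RPKM in Suz12-KO cells, against 7.17, 5.61, 10.0 and 21.4 RPKM in WT cells. The lowest WT column stood above the highest Suz12-KO column. On scaled values the WT level was 1356 times that in Suz12-KO cells at 0 h (463 to 6577), 788 times at 24 h (308 to 2895), 338 times at 48 h (216 to 562) and 576 times at 72 h (360 to 989).

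Mirg, the long non-coding host of microRNAs at the distal end of the unit (chr12:109729764-109749460), had 0, 2, 8 and 8 reads in Suz12-KO cells at 0, 24, 48 and 72 h, against 860, 695, 1148 and 2190 reads in WT cells. Its level was 0, 0.0104, 0.0341 and 0.0434 RPKM in Suz12-KO cells, against 4.57, 3.4, 6.37 and 11.4 RPKM in WT cells. Over the 4 columns WT cells had 287 times the reads relative to depth (182 to 485). The exons of Mirg also hold Mir382, Mir412 and Mir369, so their reads may be shared.

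The other long non-coding genes were read less. Gm26945 had 0, 0, 1 and 1 reads in Suz12-KO cells at 0, 24, 48 and 72 h, against 30, 39, 37 and 102 reads in WT cells. B830012L14Rik had 0, 0, 1 and 0 reads in Suz12-KO cells, against 28, 14, 17 and 36 reads in WT cells. Both kept every Suz12-KO column below every WT column. At under 1 RPKM in WT cells, B830012L14Rik did not reach the 2-fold limit at any time on the scale with 0.5 added, where its mean difference was -0.51 (-0.77 to -0.29).

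**Figure D2:**
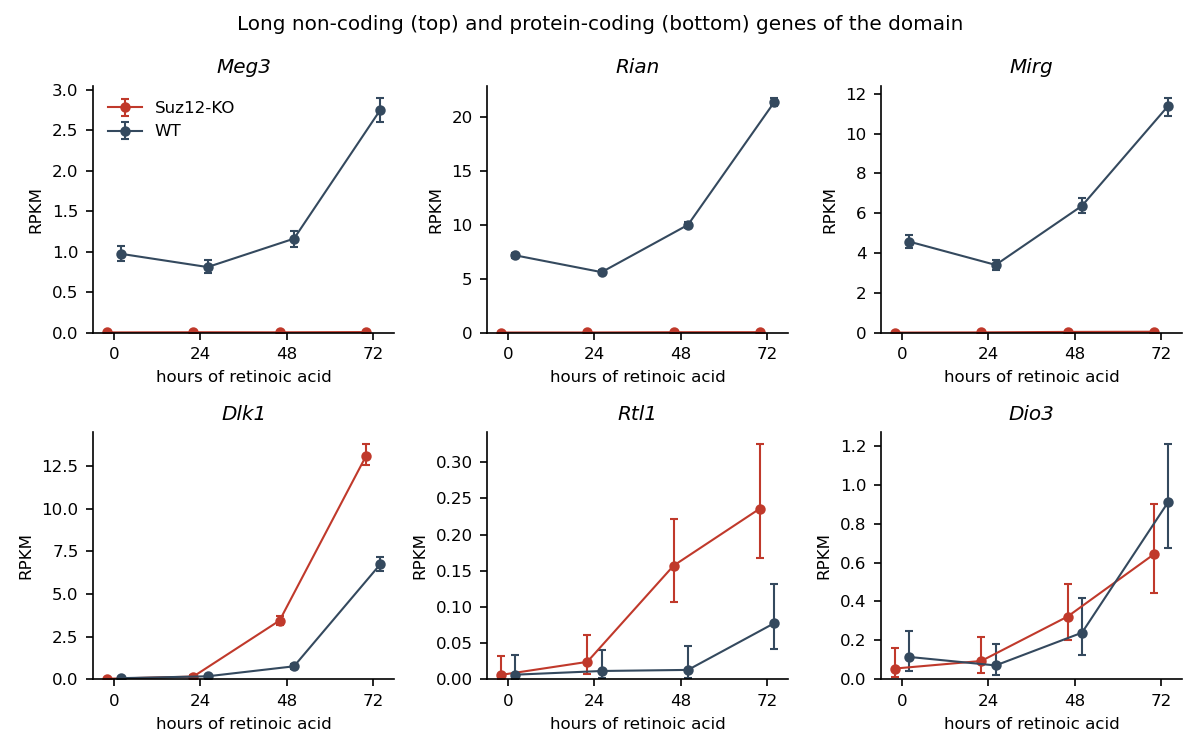
RPKM as deposited of Meg3, Rian, Mirg, Dlk1, Rtl1 and Dio3 at 0, 24, 48 and 72 h, in Suz12-KO (red) and WT (dark blue) cells, with exact Poisson 95% intervals as bars and the points of the lines set slightly apart. The non-coding genes in the top panels lie at the axis in Suz12-KO cells at all 4 times, whereas Dlk1 at 72 h is at 13.1 RPKM in Suz12-KO cells and 6.75 RPKM in WT cells.

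MicroRNA genes were likewise all but unread in Suz12-KO cells. The 44 genes together had 0, 1, 1 and 1 reads in Suz12-KO cells at 0, 24, 48 and 72 h, against 174, 138, 243 and 439 reads in WT cells. The 3 reads in Suz12-KO cells fell on Mir882, Mir329 and Mir1247, 1 read each. Over the 4 columns WT cells had 350 times the reads relative to depth (120 to 1702). RNA under 200 nucleotides was removed before sequencing and the rest fragmented to about 60 nucleotides, per the labels' protocols, so these reads do not measure mature microRNAs.

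Of single microRNA genes, Mir432 was the most read, with 0 reads in all 4 Suz12-KO columns and 37, 18, 47 and 52 reads in WT cells at 0, 24, 48 and 72 h. It was at least 54.3-fold lower in Suz12-KO cells, taking 3 reads over the 4 columns as a one-sided limit for a count of 0. The two-sided 95% interval is wider, with an upper end of 0.0229 for the Suz12-KO to WT ratio, and all bounds given as at least a fold use the one-sided limit. Mir376c likewise had 0 reads in every Suz12-KO column, against 12, 20, 31 and 63 reads in WT cells, and was at least 44.4-fold lower. Mir127, which is processed from the strand opposite Rtl1 and pairs perfectly with its RNA in the mouse, had 0 reads in every Suz12-KO column, against 14, 14, 13 and 21 reads in WT cells, and was at least 21.9-fold lower.

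Mir1193 had 0 reads in every Suz12-KO column and 14, 8, 8 and 32 reads in WT cells at 0, 24, 48 and 72 h. The next by reads were Mir654, Mir541, Mir679 and Mir433, each with 0 reads in every Suz12-KO column. Mir654 had 11, 7, 8 and 20 reads in WT cells, and Mir433, which also lies opposite Rtl1, had 1, 3, 10 and 16. These 5 genes were at least 21.9-fold, 16.2-fold, 13.4-fold, 12.7-fold and 10.6-fold lower in Suz12-KO cells, in the order named. Mir431, Mir433, Mir127, Mir434 and Mir432 overlap the Rtl1 exon on the other strand, and the sources do not say whether reads were counted by strand. Over the 4 WT columns Mir432 had 154 reads and Mir127 had 62, against 18 for Rtl1. Most reads of these 2 genes were thus not also counted for Rtl1. Rtl1 itself had 75 reads in Suz12-KO cells, against 18 in WT cells, over a gene many times longer.

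The snoRNA genes showed the same pattern. The 15 genes together had 0, 2, 0 and 0 reads in Suz12-KO cells at 0, 24, 48 and 72 h, against 187, 205, 232 and 554 reads in WT cells, 623 times as many relative to depth over the 4 columns (172 to 5148). DQ267102, whose sequence is given above, had 0 reads in every Suz12-KO column and 127, 129, 141 and 374 reads in WT cells. It reached 68.3, 63.9, 79.2 and 197 RPKM in WT cells, the highest level per length of any domain gene in each WT column, and was at least 272-fold lower in Suz12-KO cells. At 72 bases, DQ267102 falls under the 200-nucleotide cut and is close to the fragment length of about 60 nucleotides. Its level per length thus does not measure the mature snoRNA and is not readily compared with that of long genes.

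Gm23787 had 0 reads in every Suz12-KO column, against 20, 10, 23 and 51 reads in WT cells at 0, 24, 48 and 72 h, and was at least 36.7-fold lower. Gm22205 had 0 reads in every Suz12-KO column, against 8, 16, 14 and 33 reads in WT cells, and was at least 25-fold lower. Gm25856, Gm23347 and AF357428 also had none in Suz12-KO cells and were at least 14.1-fold, 11.3-fold and 7.05-fold lower, in the order named. A single Suz12-KO read at 24 h was counted for Gm25854 and another for AF357341, against 40 and 28 reads over the 4 WT columns. The ratio of WT to Suz12-KO reads relative to depth was 42.3 (7.17 to 1712) for Gm25854 and 29.6 (4.89 to 1211) for AF357341.

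**Figure D3:**
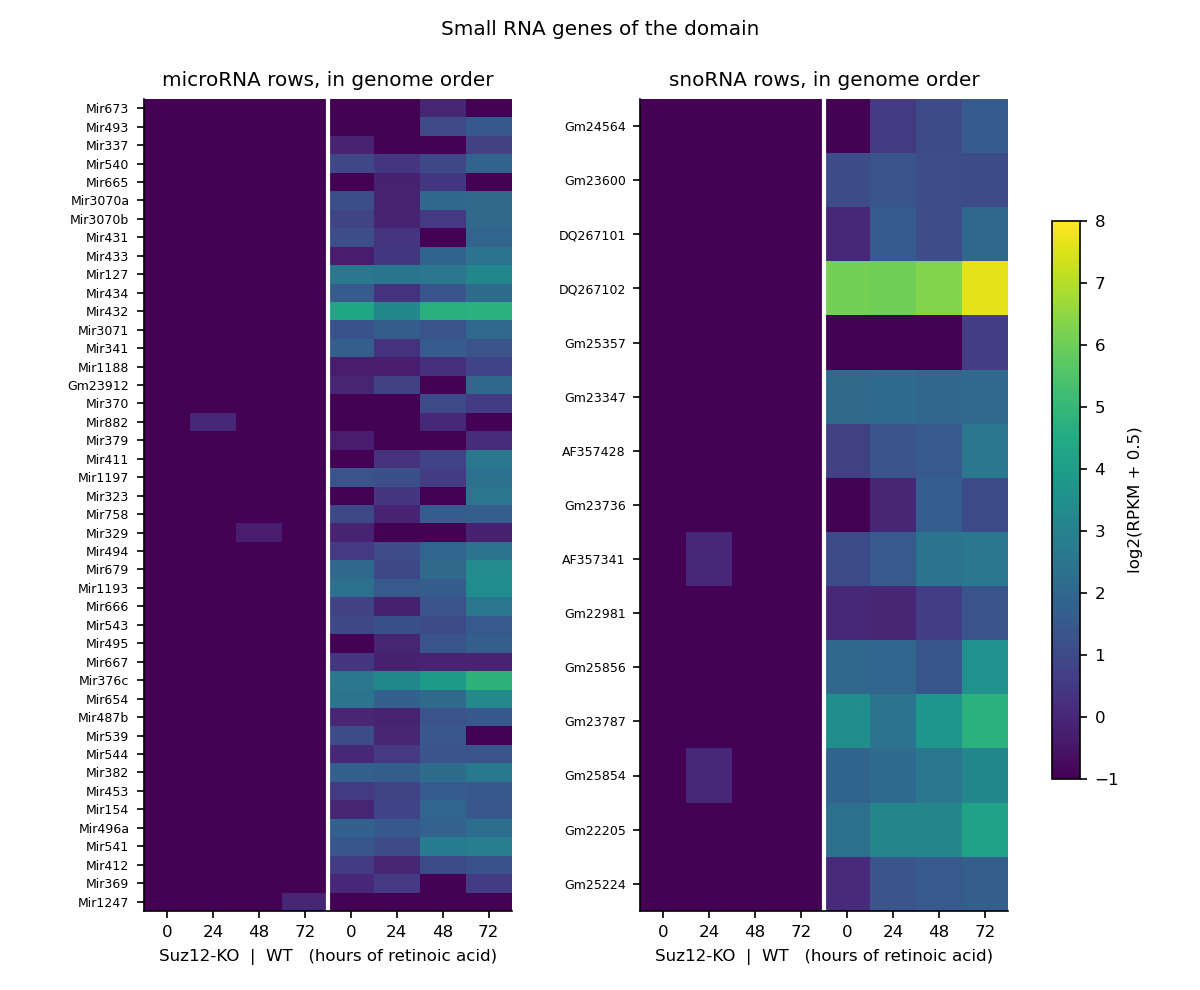
log2(RPKM + 0.5) of the 44 microRNA genes (left) and 15 snoRNA genes (right), in genome order from top to bottom, with the 4 Suz12-KO columns left of the white line and the 4 WT columns right of it. The Suz12-KO columns are at the floor except for 3 microRNA and 2 snoRNA genes with 1 read each, and DQ267102 is the brightest row in WT cells.

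Small RNA genes elsewhere in the genome were set beside those of the domain. Among genes with at least 20 reads over the WT columns, 34 of 14695 in the table had no read in any Suz12-KO column, and 21 of the 34 were in the domain. They were 15 of the 15 domain microRNA genes with that many reads and 6 of the 8 domain snoRNA genes, against 0 of 37 microRNA and 0 of 181 snoRNA genes outside the domain. As the mean of 4 differences, 1 per time (log2 of scaled RPKM + 0.5, Suz12-KO minus WT), all 44 domain microRNA genes lay between -5.32 and 0.23, with a median of -1.99, and the 422 others between -1.32 and 1.29, with a median of -0.03. All 15 domain snoRNA genes lay between -7.61 and -0.39, with a median of -2.6, and the 340 others between -1.46 and 2.19, with a median of -0.16. The domain genes near 0 were those with few reads in either line, such as Mir1247, Mir882 and Mir673. Averages hide single times in the other snoRNA genes. Of the 196 with at least 20 reads, 28.6% were 2-fold higher in Suz12-KO cells at 0 h, and 25% and 23% were 2-fold lower at 48 and 72 h. Among all genes with at least 20 reads over the 8 columns, the averages were at least 8-fold lower for 20, 15 of them in the domain.

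**Figure D4:**
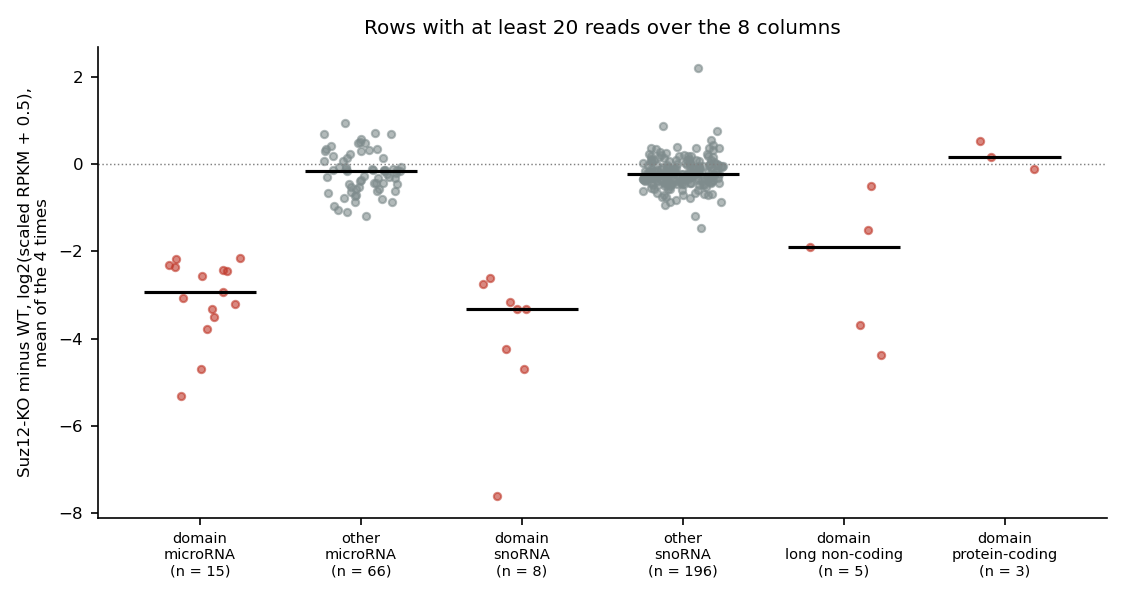
Suz12-KO minus WT difference per gene in log2(scaled RPKM + 0.5), averaged over the 4 times, for genes with at least 20 reads over the 8 columns, with domain genes in red, genes elsewhere in grey and each group's median as a bar. The domain microRNA and snoRNA genes shown passed that limit through the WT columns, so their place below -2 is partly set by it, and the microRNA and snoRNA genes elsewhere have medians of -0.16 and -0.24.

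Within WT cells, proportions between the most read genes of the unit were compared at each time. Per length, Rian was at 7.38, 6.94, 8.65 and 7.79 times the level of Meg3 at 0, 24, 48 and 72 h, and its interval at 24 h (6.25 to 7.71) lay below that at 48 h (7.9 to 9.49). Mirg was at 0.637, 0.606, 0.634 and 0.531 times the level of Rian at these times, and the value at 72 h (0.506 to 0.556) lay below the interval at 0 h (0.59 to 0.687). DQ267102 was at 9.53, 11.4, 7.89 and 9.18 times the level of Rian, with the interval at 24 h (9.48 to 13.6) above that at 48 h (6.62 to 9.33). Among these 4 the order of levels per length was DQ267102, Rian, Mirg, Meg3 in every WT column, and the interval of each ratio between neighbours excluded 1. For DQ267102, which is shorter than the size cut, this place in the order is one of counted reads per length and not of mature snoRNA.

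Over time in WT cells, Meg3, Rian and Mirg were at their lowest at 24 h and their highest at 72 h, as deposited. Rian at 72 h was 1.92 times its 0 h level on scaled values (1.85 to 2) and 2.99 times as deposited. Meg3 was 1.82 times (1.64 to 2.03) on scaled values and 2.83 times as deposited, and Mirg 1.6 times (1.48 to 1.74) and 2.49 times. Other genes of the unit differed by other amounts on scaled values, with Mir376c at 3.3 times its 0 h level (1.77 to 6.73), Mir432 at 0.885 times (0.569 to 1.39) and B830012L14Rik at 0.809 times (0.48 to 1.38). As deposited, the median gene of the table was 0.3 higher on the log2 scale at 72 h than at 0 h in WT cells, which the scaling removes. The ratios on scaled values rest on the log2 column factors, -0.54 at 0 h and 0.09 at 72 h in WT cells, a wider gap than 0.3. At least 2-fold higher at 72 h on scaled values were 9 of the 31 domain genes in WT cells, where 10.9% of all genes were, and 1 of 31 (Dlk1) in Suz12-KO cells, where 11.7% were. As deposited the WT count was 21. None of the 31 was 2-fold lower at 72 h in Suz12-KO cells, where 9.79% of all genes were, or in WT cells, where 8.15% were. In Suz12-KO cells 21 of the 31 had 0 reads in every column and could not differ in either direction. No gene of the non-coding unit exceeded 0.00631 RPKM there at 0 h. With 0.5 added, none of them could be 2-fold lower at 72 h, so the Suz12-KO counts say little about change over time.

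The authors' deposited table marks genes that differ between 72 h and 0 h, with no direction and with a threshold that the sources used here do not name. By the authors' deposited table, 3 of the 67 genes carried the mark in Suz12-KO cells (Dlk1, Rtl1 and Dio3), against 19.9% of all genes. Of the 67 genes, 54 had no read in any Suz12-KO column and could not differ between these times there. The low share in Suz12-KO cells therefore does not show them to be steady. In WT cells 5 of 67 carried it (Dlk1, Dio3, Mir376c, Mir411 and Mir323), against 18.0% of all genes in the authors' deposited table. Mir411 had 0 reads at 0 h and 14 at 72 h in WT cells, and Mir323 had 0 and 12. Meg3, Rian and Mirg were not marked in either line in the authors' deposited table.

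The protein-coding genes behaved otherwise, and were read in both lines. Together they had 7, 31, 679 and 1951 reads in Suz12-KO cells at 0, 24, 48 and 72 h, against 15, 32, 119 and 1071 reads in WT cells. Over the 4 columns Suz12-KO cells had 2.04 times the reads relative to depth of WT cells (1.91 to 2.18). Dlk1 made up most of this, with 2531 of 2668 reads in Suz12-KO cells and 1148 of 1237 in WT cells. By gene the ratio was 2.09 for Dlk1 (1.94 to 2.24), 3.94 for Rtl1 (2.33 to 7.01) and 0.826 for Dio3 (0.578 to 1.18).

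Dlk1 (chr12:109452823-109463336) was at 0.0195, 0.147, 3.44 and 13.1 RPKM in Suz12-KO cells at 0, 24, 48 and 72 h, against 0.0548, 0.164, 0.751 and 6.75 RPKM in WT cells. These rested on 3, 22, 626 and 1880 reads in Suz12-KO cells and on 8, 26, 105 and 1009 reads in WT cells. It was barely read at 0 and 24 h in either line and well read at 72 h in both. On scaled values the Suz12-KO level was 0.298 times the WT level at 0 h (0.051 to 1.24) and 0.737 times at 24 h (0.398 to 1.35), intervals that include 1. It was 4.03 times at 48 h (3.27 to 5) and 1.88 times at 72 h (1.74 to 2.03). Against its own 0 h level, Dlk1 at 72 h was 501 times as high on scaled values in Suz12-KO cells (171 to 2431) and 79.4 times as high in WT cells (40.1 to 184).

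The summed level of primitive and visceral endoderm markers was higher in Suz12-KO cells at 48 and 72 h, as Dlk1 was, but also at 0 and 24 h, when Dlk1 was not. The 10 markers summed to 14.2, 18.4, 89.1 and 154 RPKM in Suz12-KO cells at 0, 24, 48 and 72 h, against 3.14, 3.96, 18.1 and 23.7 RPKM in WT cells. Of the 9 with at least 20 reads, 2, 4, 7 and 6 passed the 2-fold limit upward in Suz12-KO cells at these times, against the shares of all genes given above (2.04%, 1.26%, 1.01% and 1.64%). Lama1 and Col4a1, a laminin chain and a collagen IV chain of basement membranes, were so at all 4 times, Afp had fewer than 20 reads, and no marker was at 0 in every column. Lama1 and Col4a1 also made up most of the Suz12-KO sums, at 10.3 and 2.79 RPKM at 0 h and at 55.9 and 71.7 RPKM at 72 h. Foxa2 at 24 and 48 h and Ttr at 48 and 72 h lay lower in Suz12-KO cells, by log2 differences of -0.44 and -0.42 for Foxa2 and of -0.74 and -0.47 for Ttr. The 10 fibroblast or mesenchyme markers summed to 0.808, 2.39, 12.6 and 17.3 RPKM in Suz12-KO cells, against 0.769, 1.81, 6.28 and 18.4 RPKM in WT cells. The 6 mesoderm markers summed to 0.416, 1.34, 3.31 and 5.14 RPKM in Suz12-KO cells, against 0.27, 0.344, 0.667 and 3.65 RPKM in WT cells. Neural markers summed to 13.2, 12.4, 9.48 and 7.75 RPKM in Suz12-KO cells, against 11.9, 7.3, 11.4 and 10.1 RPKM in WT cells. Trophoblast markers summed to between 1.26 and 2.73 RPKM in Suz12-KO cells, against 1.77 to 3.93 RPKM in WT cells, and pluripotency markers to 374, 130, 23 and 7.49 RPKM in Suz12-KO cells, against 277, 122, 17.6 and 5.46 RPKM in WT cells. The part of these cell types in the values of Dlk1 and of the non-coding unit was not tested.

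Rtl1 (chr12:109589193-109600330, minus strand) had 1, 4, 32 and 38 reads in Suz12-KO cells at 0, 24, 48 and 72 h, against 1, 2, 2 and 13 reads in WT cells, and stayed at or below 0.236 RPKM in every column. The lines were alike in reads at 0 and 24 h and apart at the later times. On scaled values the Suz12-KO level was 10.8 times the WT level at 48 h (2.76 to 93.1) and 2.95 times at 72 h (1.54 to 6.04). These low levels stayed under the 2-fold limit on the scale with 0.5 added.

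Dio3 (chr12:110279068-110281097), at the far end, had 3, 5, 21 and 33 reads in Suz12-KO cells at 0, 24, 48 and 72 h, against 6, 4, 12 and 49 reads in WT cells. Its highest column was WT at 72 h, with 0.913 RPKM, where Suz12-KO cells were at 0.643 RPKM. On scaled values the Suz12-KO level was 0.398 times the WT level at 0 h (0.0644 to 1.86), 1.09 at 24 h (0.234 to 5.49), 1.18 at 48 h (0.556 to 2.64) and 0.68 at 72 h (0.424 to 1.08), and each interval included 1.

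The nearest genes with at least 20 reads beyond each end were read in both lines. Wdr25 and Begain on the Dlk1 side and Ppp2r5c and Dync1h1, a dynein heavy chain, on the Dio3 side had Suz12-KO levels between 0.523 and 1.65 times the WT level at single times on scaled values. The lowest of these was Begain at 24 h, with 15 reads in Suz12-KO cells, against 25 in WT cells. Dync1h1, with 2904 to 7450 reads per column, was at 0.553 times the WT level at 0 h (0.528 to 0.58).

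Genes that act on the domain or its products were then counted. Of 20 genes of imprint control, among them Zfp57 and Trim28, which hold DNA methylation at imprinted elements, none was 2-fold apart in either direction at any time. Zfp57 was at 18.1, 5.17, 3.66 and 2.82 RPKM in Suz12-KO cells at 0, 24, 48 and 72 h, against 14.9, 5.34, 3.32 and 3.56 RPKM in WT cells. None of 13 microRNA processing genes and none of 9 box C/D snoRNP genes was 2-fold apart at any time either. Over all genes, 1.20% to 1.76% were as much lower at single times and 1.01% to 2.04% as much higher. With shares that low, a count of 0 in lists this short does not set them apart from other genes. The medians of these lists lay between -0.22 and 0.05 on the log2 scale. Of 12 measured Notch receptors and targets, 1 was 2-fold lower in Suz12-KO cells at 0 h and none was apart later, against 1.26% of all genes that were as much lower at 0 h. Of 7 measured genes of thyroid hormone handling, 1 was 2-fold higher in Suz12-KO cells at 24 h and 1 at 72 h, where 1.26% and 1.64% of all genes were.

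Other imprinted genes lay apart in both directions. Of 31 measured, 2, 1, 3 and 3 were at least 2-fold lower in Suz12-KO cells at 0, 24, 48 and 72 h, and 2, 4, 3 and 2 were higher by that much. Over all genes 1.26%, 1.20%, 1.76% and 1.66% were as much lower and 2.04%, 1.26%, 1.01% and 1.64% as much higher. Nnat, a small membrane protein gene expressed from the paternal copy, was the member higher at all 4 times, with 1.07, 5.45, 12.4 and 15.9 RPKM in Suz12-KO cells, against 0.127, 0.507, 4.38 and 7.03 RPKM in WT cells. H19, a maternally expressed non-coding RNA named here after its values were seen, was at 0, 0, 0.42 and 1.25 RPKM in Suz12-KO cells, against 0.0816, 0.0752, 3.51 and 22.8 RPKM in WT cells. Its paternally expressed neighbour Igf2, a growth factor gene, was at 0.045, 0.424, 6.8 and 52.7 RPKM in Suz12-KO cells, against 0.0947, 0.268, 8.46 and 59.5 RPKM in WT cells. Peg10 and Grb10 were likewise named after their values were seen. Peg10 was at 56.2 and 54.3 RPKM in Suz12-KO cells at 48 and 72 h, against 307 and 311 RPKM in WT cells. Grb10 was at 25.9 and 92.1 RPKM in Suz12-KO cells at 0 and 24 h, against 6.48 and 17.9 RPKM in WT cells. Whether direction went with the parental copy expressed was not tested.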

How the data were processed

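Per the submitters' processing notes, reads were handled with TopHat, featureCounts and DESeq2 on GRCm38 (mm10), whose versions the sources used here do not give. The authors deposited RPKM per gene, with 1 column per group and Ensembl release 72 identifiers per the file headers, and TRUE or FALSE marks for 72 h against 0 h. The sources used here do not say how 2 replicates became 1 column. Total RNA was cleared of RNA under 200 nucleotides and of ribosomal RNA, per the labels' protocols. Whole reads were recovered here from the steps between RPKM values. Each of the 153803 non-zero values gave a whole number, to within 6.68e-05 reads. Symbols and positions came from GENCODE M21, and 595 identifiers had no match. Lengths of 11 domain genes came from these steps, so their reads could be a whole multiple of those given. Scaling used median-of-ratios factors over genes with at least 20 reads. The planned design assumed 1 column per group, so no test was run. Named genes were all coding and long non-coding genes, the 8 microRNA and 8 snoRNA genes with the most reads, the nearest 2 flanking genes on each side and Suz12. The domain, the lists and the rules were chosen with earlier results of these data known. Recovery and 2-fold counts were tested on simulated data. Python 3.11.15, numpy 2.4.6, pandas 2.3.3, scipy 1.17.1 and matplotlib 3.10.9 were used.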

Additional observations from a re-analysis of the deposited data

How the results depend on the processing

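Alternatives were RPKM as deposited, upper-quartile factors, a pseudocount of 0.1, no filter on reads, a filter of 1 RPKM in at least 1 column, and leaving out each time. None of the 216 values recomputed for 24 named genes changed sign. For the named genes with 0 reads in every Suz12-KO column, the sign was fixed in advance and could not change. As deposited, domain genes at least 2-fold higher at 72 h than at 0 h numbered 2 in Suz12-KO and 21 in WT cells. With a pseudocount of 0.1 the median differences between the lines were -5.39, -4.17, -5.02 and -5.71 at 0, 24, 48 and 72 h, 2 genes were higher in Suz12-KO cells at 48 h, 3 were higher at 72 h in Suz12-KO cells and 1 lower in WT cells. With no filter the genes lower in Suz12-KO cells numbered 48, 41, 51 and 56 of 67, the medians at 0, 48 and 72 h were -1.93, -2.24 and -2.66, and in WT cells 22 genes were higher at 72 h and 1 lower. With the filter of 1 RPKM they numbered 45, 40, 50 and 54, the median at 72 h was -2.98, and in WT cells 21 genes were higher at 72 h and 1 lower. These filters change which genes are counted, and the pseudocount sets the difference of genes at 0 reads. No paired analysis was possible because the table holds 1 column per group, with no replicate numbers. Depth limits the single microRNA and snoRNA genes, most of which had under 20 reads, so a gene at 0 reads was not detectable at this depth and is not shown to be absent.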

Other observations

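The counts of lower genes given here cover only genes with at least 20 reads summed over all columns of both lines. Outside the domain, 12 such genes with a known position were on average at least 4-fold lower in Suz12-KO than in WT cells. Inside the domain 25 such genes were, with averages taken over the 4 times. Domain genes with fewer reads were not counted. A further 2 genes as much lower had no GENCODE M21 position. ENSMUSG00000089449 and ENSMUSG00000065419 each had 0 reads over the 4 Suz12-KO columns and 20 reads over the 4 WT columns. Neither is counted among the 67 domain genes.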
